A study of Drosophila melanogaster with 9 samples.

Results

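The 31 genes described here encode septate junction proteins (20 genes) and apical-basal polarity and adherens junction proteins (11 genes) of Drosophila melanogaster. They were chosen by name and matched exactly to the gene names of the deposited count tables, where all 31 were found among 17558 genes. All 31 passed the filter on low counts, which kept 11068 genes. Gene expression was measured by RNA sequencing of pupal retinas. The animals were kept at 25 °C and had reached 40 to 41 hours of pupal development, counted from puparium formation. Bon+yki-RNAi eyes carried UAS-bon-mCherry, pGMR-GAL4 and UAS-yki-RNAi, Bon eyes carried UAS-bon-mCherry and pGMR-GAL4, and mCherry eyes carried UAS-mCherry and pGMR-GAL4. Each group had 3 libraries, which the series design names biological replicates, and the labels state that material from 60 eyes was combined for a genotype. All groups thus share pGMR-GAL4, a driver of differentiating retinal cells that is not specific to 1 cell type, and each genotype is a single combination of stocks. The study asked how Yki and Bonus (Bon) act on the choice between eye and epidermis, at the stage when epidermal hairs begin to form in Bon-overexpressing eyes.

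Septate junctions are ladder-like contacts between neighbouring insect epithelial cells that close the space between them, the counterpart of vertebrate tight junctions in barrier function. Their core is a large complex of transmembrane and cytoplasmic proteins, assembled with the help of small membrane-anchored Ly6 proteins and sealed at the corners where cells meet by tricellular proteins. Basally of the adherens junction, the Scribble module marks the lateral membrane, while the Crumbs and Par complexes mark the apical side. In the eye, septate junctions are found in the lattice of accessory cells and also in glia.

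Library totals were 37137136 to 39690537 counts in Bon+yki-RNAi, 38754394 to 48485542 in Bon and 34926438 to 48524961 in mCherry. Replicates had correlations of at least 0.996 over genes in log2 CPM, which are counts per 1000000 after scaling of the library sizes by the TMM method. The level of bon was 4166 ± 48.1 CPM with the transgene and yki RNAi, 4983 ± 258 CPM with the transgene alone and 174 ± 2.94 CPM without it (mean and SD, n = 3 each). The target of the RNAi construct, yki, averaged 29.2 ± 0.25, 62.6 ± 0.316 and 61.1 ± 1.46 CPM in Bon+yki-RNAi, Bon and mCherry eyes. In the Bon+yki-RNAi eyes bon was therefore also lower than in Bon eyes (log2 fold change -0.26 ± 0.03, edgeR adjusted p = 6.14e-05), and its part in the differences between these groups was not tested.

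The members were abundant genes with small replicate spread. Mean levels ran from 58.3 to 2276 CPM in Bon+yki-RNAi, 73.0 to 2268 CPM in Bon and 83.6 to 2094 CPM in mCherry eyes. The median coefficient of variation over the 3 libraries of a group was 1.52%, 2.31% and 1.78% for the members in Bon+yki-RNAi, Bon and mCherry. For all tested genes it was 3.59%, 4.13% and 4.62%. Only 3579 of the 11068 tested genes had a mean of at least 50 CPM, and the spread of genes as abundant as the members was not computed. Per kilobase of exon in mCherry eyes, the highest levels were those of Lac, a GPI-anchored immunoglobulin-domain protein, at 571 CPM per kb, the beta-catenin gene arm at 480 and the sodium pump alpha subunit gene Atpalpha at 313. The lowest was the Par-3 gene baz at 15.1 CPM per kb, which still stood at percentile 58.3 of all tested genes on that scale. The median member stood at percentile 94.7 in mCherry eyes. The members lie on all large chromosome arms, with 8 on X, 7 on 2L, 5 on 2R, 7 on 3L and 4 on 3R.

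**Figure D1:**
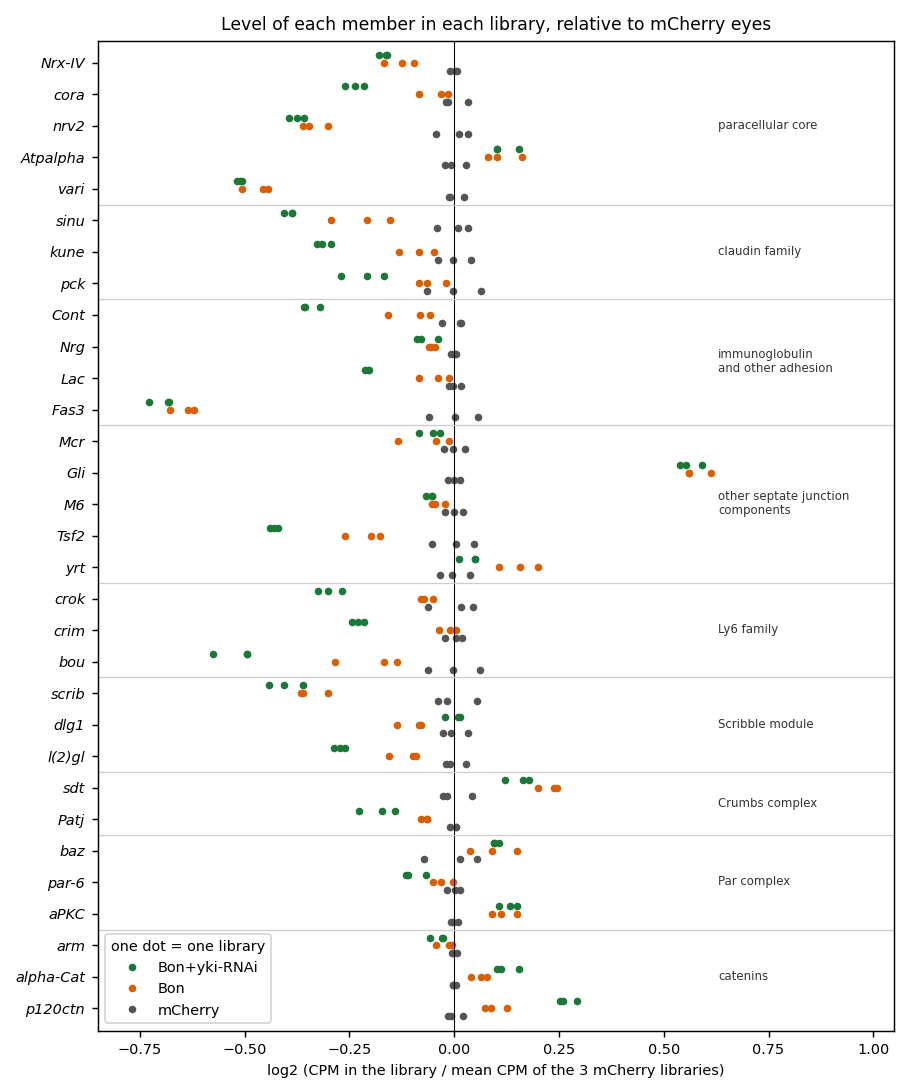
Each dot is the CPM of 1 library relative to the mean of the 3 mCherry libraries, on a log2 scale, with members in rows grouped by role and the groups Bon+yki-RNAi, Bon and mCherry from top to bottom within a row. Gli lies far right of mCherry in all 6 libraries that carry the bon transgene and Fas3 far left, while in the claudin and Ly6 rows the Bon+yki-RNAi dots lie left of the Bon dots.

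With Bon overexpression, the members moved in both directions and by small amounts. Of the 31 members, 8 rose and 13 fell in Bon eyes against mCherry eyes (edgeR quasi-likelihood test, adjusted p under 0.05 over all tested genes). Among all tested genes 25.2% rose and 27.2% fell, 52.4% in either direction, so the share of members that rose (25.8%) was near the background, and the share that fell was 41.9%. Of the 3579 tested genes with a mean of at least 50 CPM, 30.7% rose and 35.9% fell. The median log2 fold change of the members was -0.06, against -0.001 for all tested genes, and their median absolute value was 0.10, against 0.18. With upper-quartile scaling 8 members rose and 8 fell, and the members' median was 0.01. No member changed by 1 or more on the log2 scale in any comparison, and the extremes here were Gli at 0.58 and Fas3 at -0.64.

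Gli encodes Gliotactin, a cholinesterase-like transmembrane protein that marks the corners where 3 cells meet (2L, 15756002 to 15762758, BDGP6). It had 461, 456 and 473 CPM in Bon+yki-RNAi eyes, 480, 463 and 463 CPM in Bon eyes, and 314, 317 and 311 CPM in mCherry eyes. All 6 libraries with the bon transgene lay above all mCherry libraries, while those of Bon+yki-RNAi and Bon overlapped. The log2 fold change of Bon over mCherry was 0.58 ± 0.03 (SE, adjusted p = 1.34e-10), a rise of 49.5%. The fold change of Bon+yki-RNAi over Bon was -0.02 ± 0.03 (adjusted p = 0.671). Its tricellular partner M6, a proteolipid-family membrane protein, stood at 189 ± 1.14, 192 ± 1.73 and 197 ± 3.05 CPM in Bon+yki-RNAi, Bon and mCherry eyes. M6 did not pass the test in Bon against mCherry (-0.04 ± 0.02, adjusted p = 0.187), and 23.3% of its exonic bases are shared with the overlapping gene SAK on the other strand. A further tricellular gene outside the members, bark, rose with Bon by 0.30 ± 0.03 (adjusted p = 3.96e-06). After yki knockdown bark had 0.01 ± 0.03 (adjusted p = 0.914).

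Fas3 encodes Fasciclin III, an immunoglobulin-domain adhesion protein of the lateral membrane (2L, 18320102 to 18393441). It had 603, 623 and 624 CPM in Bon+yki-RNAi eyes, 625, 644 and 650 CPM in Bon eyes, and 1001, 1039 and 958 CPM in mCherry eyes. The libraries with the bon transgene lay far below those without it. Fas3 fell by 0.64 on the log2 scale in Bon against mCherry (SE 0.03, adjusted p = 3.6e-10), a change of -36.0%. Against Bon, Bon+yki-RNAi gave -0.05 ± 0.03 (adjusted p = 0.242).

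The next largest change belonged to vari, which encodes the scaffold protein Varicose of the MAGUK family (2L, 20788662 to 20797042). It had 340, 338 and 341 CPM in Bon+yki-RNAi eyes, 353, 356 and 341 CPM in Bon eyes, and 480, 492 and 481 CPM in mCherry eyes. The fold change of Bon over mCherry was -0.47 ± 0.03 (adjusted p = 1.01e-09), and that of Bon+yki-RNAi over Bon -0.04 ± 0.03 (adjusted p = 0.239). Of the exonic bases of vari 15.2% overlap Pomp on the other strand, so some of its counts may belong to that gene. Among the other core genes, nrv2, a beta subunit of the sodium pump, averaged 391 ± 5.04 CPM in Bon+yki-RNAi, 402 ± 8.94 CPM in Bon and 508 ± 13.6 CPM in mCherry eyes. It fell with Bon by 0.34 on the log2 scale (adjusted p = 1.17e-07). Its catalytic partner Atpalpha rose slightly, with 2276 ± 49.1, 2268 ± 67.9 and 2094 ± 37.8 CPM in Bon+yki-RNAi, Bon and mCherry eyes (0.12 ± 0.03 for Bon over mCherry, adjusted p = 0.00465). The neurexin gene Nrx-IV fell by 0.13 with Bon (adjusted p = 0.000628), and cora, which encodes the FERM-domain protein Coracle, had -0.04 ± 0.03 (adjusted p = 0.209). The pump subunit genes nrv2 and Atpalpha thus stood on opposite sides of their mCherry levels. A further beta subunit gene outside the members, nrv1, had -0.18 ± 0.04 with Bon (adjusted p = 0.00433).

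The polarity members also moved both ways with Bon. All 3 genes of the Scribble module fell: scrib, a lateral scaffold with leucine-rich repeats and PDZ domains, at -0.34 ± 0.03 (adjusted p = 4.17e-07), l(2)gl at -0.11 ± 0.03 (adjusted p = 0.00221) and dlg1 at -0.10 ± 0.03 (adjusted p = 0.00659). The levels of scrib were 1016 ± 27.7 CPM in Bon+yki-RNAi, 1059 ± 26.1 CPM in Bon and 1343 ± 45.1 CPM in mCherry eyes. With upper-quartile scaling the calls of l(2)gl (adjusted p = 0.122) and dlg1 (adjusted p = 0.337) ended, and that of dlg1 also ended without mCherry replicate 1 (adjusted p = 0.0609) or Bon replicate 2 (adjusted p = 0.0694). On the apical side, sdt, the scaffold that binds Crumbs, rose to 905 ± 15.4 CPM in Bon eyes, against 773 ± 20.3 CPM in mCherry eyes (0.23 ± 0.03, adjusted p = 8.36e-06). Patj, in the Crumbs complex with sdt, fell by 0.07 (SE 0.03, adjusted p = 0.0368). The kinase gene aPKC rose by 0.12 ± 0.02 (adjusted p = 0.00103), while par-6, its binding partner, had -0.03 ± 0.03 (adjusted p = 0.409). The third Par complex gene, baz, rose by 0.10 ± 0.03 (adjusted p = 0.0334). The catenin gene p120ctn rose by 0.10 ± 0.03 (adjusted p = 0.0048) and alpha-Cat by 0.06 ± 0.02 (adjusted p = 0.0479). The third catenin gene, arm, had -0.02 ± 0.02 (adjusted p = 0.53).

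Of the 21 members called with Bon, 14 kept their call and direction under each of the 16 alternative settings run. The rises kept were those of Gli, sdt, yrt, Atpalpha, aPKC and p120ctn, and the falls those of Fas3, vari, nrv2, scrib, sinu, Tsf2, bou and Nrx-IV. The calls of kune, Cont, dlg1, l(2)gl, Patj, baz and alpha-Cat ended under at least 1 setting. Each of these had an absolute log2 fold change of 0.11 or less.

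**Figure D2:**
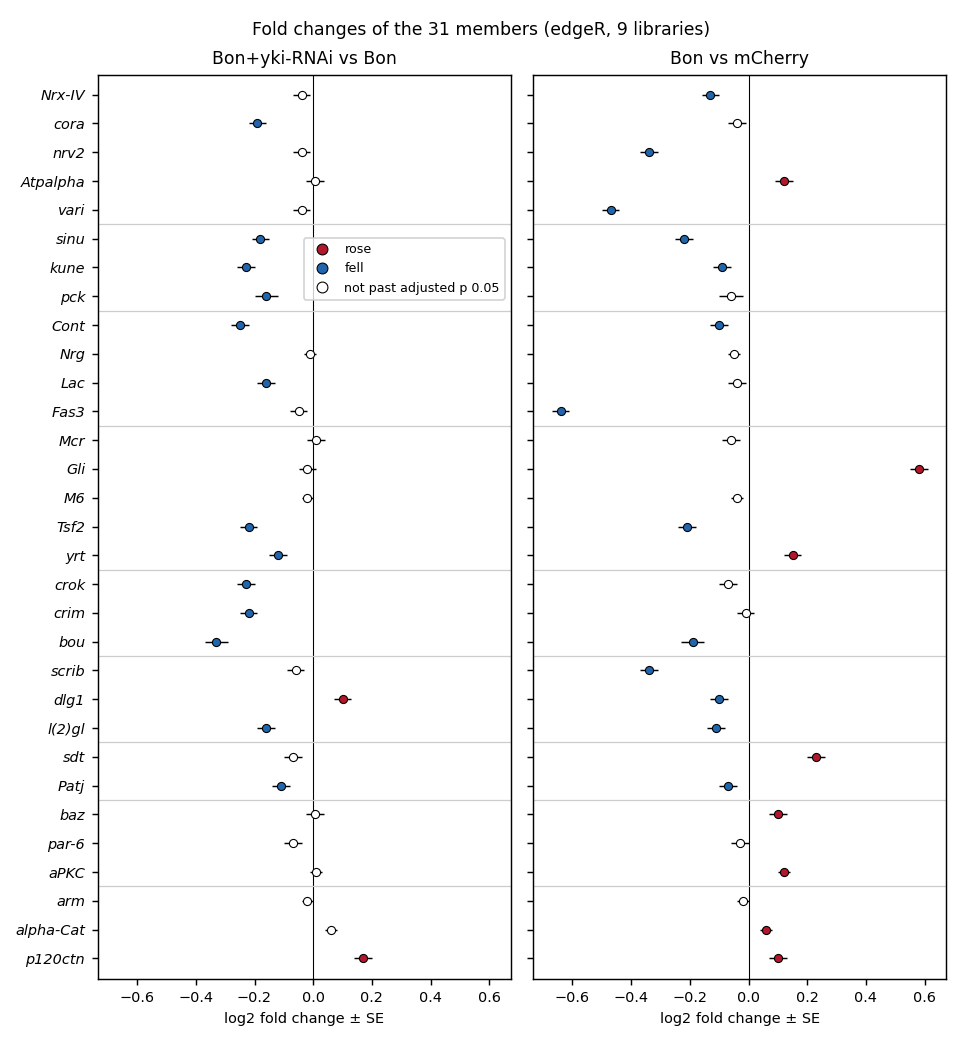
Log2 fold change with its SE for each of the 31 members, for Bon+yki-RNAi over Bon on the left and Bon over mCherry on the right. Filled points passed the adjusted p of 0.05 (red rose, blue fell), and open points did not. The largest changes with Bon (Gli at 0.58, Fas3 at -0.64, vari at -0.47) stand beside open points near 0 on the left, and the claudin and Ly6 genes are blue on the left.

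When yki was knocked down in Bon eyes, the called members were mostly septate junction genes that fell. Of the 31 members, 13 fell and 2 rose in Bon+yki-RNAi eyes against Bon eyes. Among all tested genes 16.3% fell and 11.3% rose, 27.6% in either direction, and among tested genes with at least 50 CPM 24.5% fell and 16.3% rose, while 41.9% of the members fell and 6.45% rose. Of the 20 septate junction members 11 fell and 0 rose, and of the 11 polarity and catenin members 2 fell and 2 rose. The median log2 fold change of the septate junction members was -0.14 and that of the polarity and catenin members -0.02, against -0.009 for all tested genes. The falls were small, with bou at -0.33 the largest. Whether the septate junction and polarity genes differ was not tested.

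All 3 claudin-family genes fell. Claudins are membrane proteins that span the bilayer repeatedly and set the tightness of the paracellular barrier. The claudin gene kune (kune-kune) had 132, 131 and 134 CPM in Bon+yki-RNAi eyes, 159, 155 and 150 CPM in Bon eyes, and 160, 169 and 164 CPM in mCherry eyes, with a fold change over Bon of -0.23 ± 0.03 (adjusted p = 4.57e-05). The gene sinu (sinuous) averaged 136 ± 1.11 CPM in Bon+yki-RNAi, 154 ± 7.49 CPM in Bon and 179 ± 4.67 CPM in mCherry eyes (-0.18 ± 0.03 over Bon, adjusted p = 0.00121). The third, pck, averaged 143 ± 5.13, 160 ± 3.73 and 166 ± 7.48 CPM in the same groups (-0.16 ± 0.04 over Bon, adjusted p = 0.00441). In each of the 3 genes, every Bon+yki-RNAi library lay below every Bon library. The same held for Fas3, M6, sdt and par-6, which did not pass the test (adjusted p = 0.242, 0.586, 0.0686 and 0.0724). The share of such genes among all tested genes was not counted.

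The 3 Ly6 genes, whose GPI-anchored products are needed to assemble the junction, fell as well. The largest change was that of bou (boudin; X, 6986486 to 6987188), with 59.4, 59.4 and 56.1 CPM in Bon+yki-RNAi eyes, 76.1, 74.4 and 68.6 CPM in Bon eyes, and 80.1, 87.2 and 83.5 CPM in mCherry eyes. The 3 groups did not overlap, and the share of such genes among all tested genes was not counted. Its fold change was -0.33 ± 0.04 for Bon+yki-RNAi over Bon (adjusted p = 6.24e-05), a change of -20.3%, and -0.19 ± 0.04 for Bon over mCherry (adjusted p = 0.00146). The gene crok (crooked) had 71.7 ± 1.41, 84.2 ± 0.911 and 88.2 ± 3.34 CPM in Bon+yki-RNAi, Bon and mCherry eyes (-0.23 ± 0.03 over Bon, adjusted p = 7.41e-05). For crim (crimpled) the levels were 90.2 ± 0.886, 105 ± 1.28 and 106 ± 1.67 CPM (-0.22 ± 0.03 over Bon, adjusted p = 1.99e-05). Neither crok nor crim passed the test in Bon against mCherry (adjusted p = 0.0844 and 0.668).

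**Figure D3:**
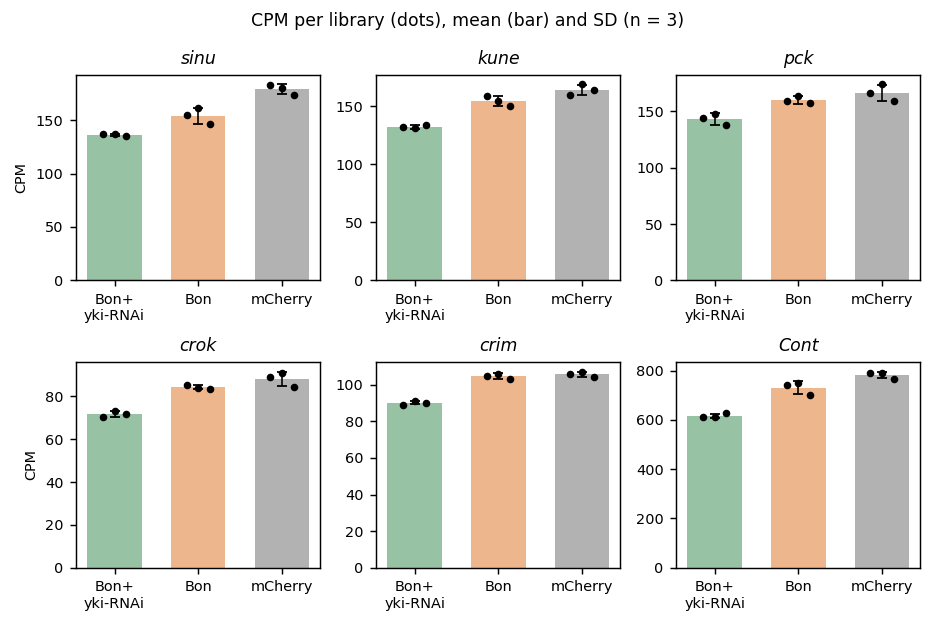
CPM of the 3 claudin-family genes sinu, kune and pck, the Ly6 genes crok and crim, and Cont, with 1 dot per library, bars at the group mean and whiskers of 1 SD (n = 3). The Bon+yki-RNAi dots lie below the Bon dots in each panel, for example 611 to 627 against 702 to 752 CPM for Cont.

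Further falls after yki knockdown lay in the adhesion and core genes. Cont, which encodes the GPI-anchored protein Contactin of the core complex, had 611, 612 and 627 CPM in Bon+yki-RNAi eyes, 740, 752 and 702 CPM in Bon eyes, and 791, 790 and 767 CPM in mCherry eyes (-0.25 ± 0.03 over Bon, adjusted p = 2.27e-05). Tsf2, the iron-binding Melanotransferrin, averaged 288 ± 2.06 CPM in Bon+yki-RNAi, 335 ± 9.97 CPM in Bon and 388 ± 13.5 CPM in mCherry eyes (-0.22 ± 0.03 over Bon, adjusted p = 9.71e-05). The core gene cora fell by 0.19 (adjusted p = 0.00011) and Lac by 0.16 (adjusted p = 0.000286). The core genes Nrx-IV, nrv2, Atpalpha and vari did not pass the test, with fold changes of -0.04 ± 0.03, -0.04 ± 0.03, 0.005 ± 0.03 and -0.04 ± 0.03. The same holds for Fas3, Gli and M6 above, for Nrg, the L1-type adhesion protein Neuroglian (-0.01 ± 0.02, adjusted p = 0.711), and for Mcr, a macroglobulin-related protein (0.01 ± 0.03, adjusted p = 0.907).

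Of the polarity members, l(2)gl (-0.16 ± 0.03, adjusted p = 0.000406) and Patj, a multi-PDZ partner of Stardust (-0.11 ± 0.03, adjusted p = 0.00774), fell after yki knockdown. The delta-catenin gene p120ctn rose, with 249, 256 and 250 CPM in Bon+yki-RNAi eyes, 220, 228 and 222 CPM in Bon eyes, and 208, 207 and 212 CPM in mCherry eyes (0.17 ± 0.03 over Bon, adjusted p = 0.000131). Its 3 groups did not overlap, though how many of all tested genes do the same was not counted. The other catenin genes and the Par complex did not pass the test: alpha-Cat had 0.06 ± 0.02 (adjusted p = 0.0727), arm -0.02 ± 0.02, baz 0.005 ± 0.03, par-6 -0.07 ± 0.03 and aPKC 0.01 ± 0.02. The value of alpha-Cat passed with other scaling factors, at 0.07 with the RLE method (adjusted p = 0.0427).

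For 2 members the change after yki knockdown had the opposite sign to the change with Bon, and both changes passed the test. The comparisons share the Bon libraries. The FERM-domain gene yrt, a lateral regulator that limits Crumbs (3R, 13428867 to 13434984), had 270, 270 and 263 CPM in Bon+yki-RNAi eyes, 291, 300 and 281 CPM in Bon eyes, and 268, 260 and 255 CPM in mCherry eyes. Its fold changes were -0.12 ± 0.03 for Bon+yki-RNAi over Bon (adjusted p = 0.00785) and 0.15 ± 0.03 for Bon over mCherry (adjusted p = 0.000534). The Bon+yki-RNAi and mCherry libraries overlapped (0.03 ± 0.03, adjusted p = 0.35). The Discs large scaffold gene dlg1 (X, 11369665 to 11409776) had 584, 572 and 586 CPM in Bon+yki-RNAi eyes, 550, 528 and 548 CPM in Bon eyes, and 594, 570 and 578 CPM in mCherry eyes. Its fold changes were 0.10 ± 0.03 for Bon+yki-RNAi over Bon (adjusted p = 0.0132) and -0.10 ± 0.03 for Bon over mCherry. The first ended when the trend with exonic length was removed (0.06, adjusted p = 0.144), and without Bon replicate 2 (0.08, adjusted p = 0.0767), Bon+yki-RNAi replicate 1 (0.09, adjusted p = 0.0611) or Bon+yki-RNAi replicate 3 (0.10, adjusted p = 0.0522).

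**Figure D4:**
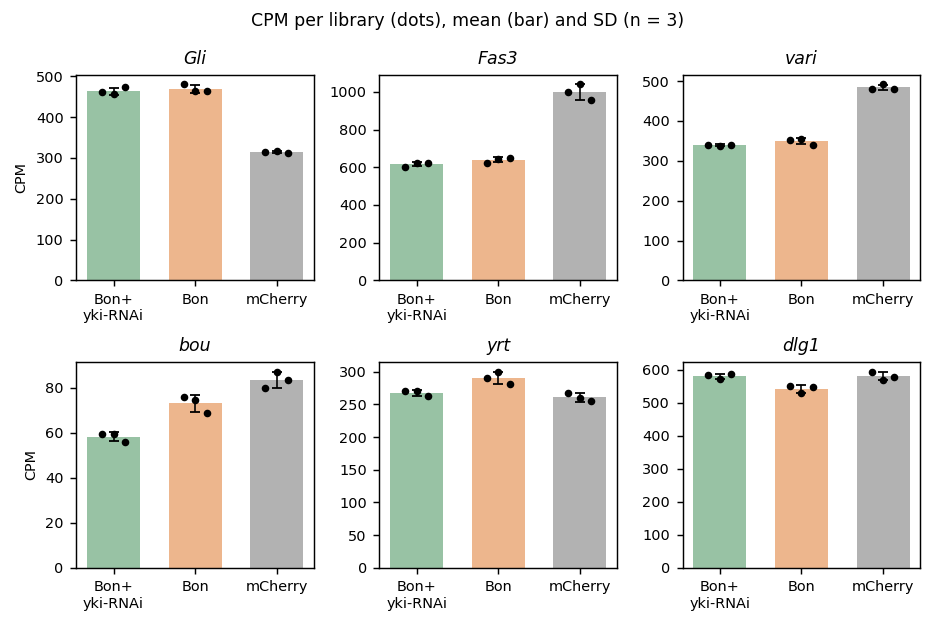
CPM per library (dots) with the group mean (bar) and SD (whisker, n = 3) for Gli, Fas3, vari, bou, yrt and dlg1. Gli and Fas3 differ between the mCherry bar and both bars with the bon transgene, bou steps down to 58.3 CPM in Bon+yki-RNAi, 73.0 in Bon and 83.6 in mCherry, and yrt and dlg1 stand apart in the Bon bar.

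Of the 15 members called after yki knockdown, 13 kept their call and direction under all 16 alternative settings run: the rise of p120ctn and the falls of bou, Cont, kune, crok, crim, Tsf2, cora, sinu, Lac, pck, l(2)gl and yrt. The exceptions were dlg1 and Patj, whose call ended without Bon+yki-RNAi replicate 2 (-0.08, adjusted p = 0.0597). In the authors' deposited table for the comparison of Bon+yki-RNAi with Bon, 12 members fell and 2 rose, and 30 of 31 calls were the same as here. In their table for Bon against mCherry, 11 fell and 6 rose, with 27 of 31 calls the same. The authors' tables and the counts come from the same libraries and are no independent measurement.

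The members that fell after yki knockdown included the short genes of the list. All 5 members with up to 1500 bases of exon fell (median log2 fold change -0.23), as did 3 of 6 with up to 3000, 4 of 10 with up to 6000 and 1 of 10 above that (median -0.01). Across all tested genes with at least 50 CPM there was a trend in the same direction, with medians of -0.06, -0.03, 0.01 and 0.03 in these 4 length classes. In the shortest class 36.9% of those genes fell, and in the longest class 16.1%. With each library's trend of level with exonic length removed, a setting added after these values were seen, 15 members fell and 1 rose. In that fit bou had -0.30 (adjusted p = 7.04e-05), kune -0.19 (adjusted p = 9.51e-05), crim -0.19 (adjusted p = 4.89e-05) and Cont -0.27 (adjusted p = 1.49e-05). The removed trend was fitted over genes that included many below 50 CPM. Among all tested genes the shortest class had a median of only -0.03, so the correction may be too weak for these abundant members.

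**Figure D5:**
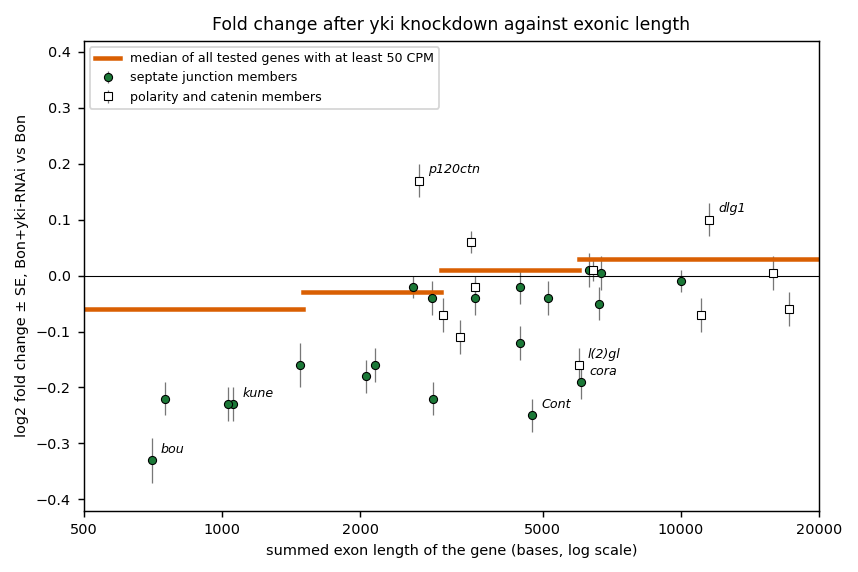
Log2 fold change of Bon+yki-RNAi over Bon with its SE (vertical axis) against the summed exon length of each member (horizontal axis, log scale), with septate junction members as circles and the others as squares. Orange lines give the median of all tested genes with at least 50 CPM in 4 length classes, at -0.06 to 0.03. The 5 shortest members lie at or below -0.16, under that line.

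Set against mCherry eyes, the Bon+yki-RNAi eyes had more members past the test than either step. Of the 31 members 20 fell and 7 rose, while 29.4% of all tested genes fell and 25.1% rose, 54.5% in either direction. Of the tested genes with at least 50 CPM, 40.2% fell and 31.4% rose, and 64.5% of the members fell and 22.6% rose. Of the septate junction members 16 fell and 2 rose. The lowest fold changes were those of Fas3 (-0.70 ± 0.03, adjusted p = 1.53e-10), bou (-0.52 ± 0.04, adjusted p = 1.36e-07), vari (-0.51 ± 0.03, adjusted p = 3.99e-10) and Tsf2 (-0.43 ± 0.03, adjusted p = 2.06e-08), and the highest that of Gli (0.56 ± 0.03, adjusted p = 2.05e-10). This comparison shares its libraries with the other comparisons and its fold changes are their sums. The calls of Nrg, M6, baz, par-6, sdt and Atpalpha ended under at least 1 alternative setting.

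Further genes of these pathways were listed from general knowledge. Of 15 other tested septate junction genes, 5 rose and 3 fell with Bon, and 0 rose and 6 fell with yki knockdown in Bon eyes. With Bon these were 33.3% and 20.0%, against 25.2% and 27.2% of all tested genes. With yki knockdown 0% rose and 40.0% fell, against 11.3% and 16.3% of all tested genes. Among tested genes with at least 50 CPM, 16.3% rose and 24.5% fell. Of the listed genes that fell, cold, rtv and pasi1 have up to 1500 bases of exon, and wun, wun2 and pasi2 up to 3000. In the shorter class 36.9% of tested genes with at least 50 CPM fell, and in the longer class 30.3%. The lipid phosphatase genes wun and wun2, which act on the tracheal barrier, rose with Bon by 0.72 ± 0.05 (adjusted p = 1.1e-08) and 0.34 ± 0.04, and Fas2, an NCAM-type adhesion gene, by 0.26 ± 0.03. The glial junction gene pasi1 had -0.29 ± 0.03. After yki knockdown wun fell, to 26.8 ± 0.561 CPM in Bon+yki-RNAi eyes, against 32.9 ± 1.63 CPM in Bon eyes (-0.30 ± 0.05, adjusted p = 0.000258). The Ly6 gene cold, the junction gene pasi2 and rtv, a Ly6-type gene of chitin organisation, had -0.22 ± 0.03, -0.19 ± 0.03 and -0.25 ± 0.05 in this comparison, each past the test.

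Of 16 other polarity genes, 2 rose and 4 fell with Bon, and 0 rose and 2 fell with yki knockdown. With Bon these were 12.5% and 25.0%, against 25.2% and 27.2% of all tested genes. With yki knockdown 0% rose and 12.5% fell, against 11.3% and 16.3% of all tested genes. The scaffold gene Dlg5 had -0.29 ± 0.03 with Bon (adjusted p = 5.22e-07), Magi -0.18 ± 0.03 and the heavy spectrin gene kst -0.17 ± 0.04. The gene of the apical determinant Crumbs, crb, averaged 310 ± 5.75 CPM in Bon+yki-RNAi eyes, against 345 ± 11.4 CPM in Bon eyes (-0.15 ± 0.03, adjusted p = 0.00137). Of 17 other adherens junction genes, 5 rose and 4 fell with Bon, and 3 rose and 8 fell with yki knockdown. These were 29.4% and 23.5% with Bon, and 17.6% and 47.1% with yki knockdown. Of tested genes with at least 50 CPM, 16.3% rose and 24.5% fell with yki knockdown. The kinase gene mbt and the myosin heavy chain gene zip had -0.57 ± 0.04 and -0.40 ± 0.03 with Bon, while Vinc (vinculin) and ed (Echinoid, an immunoglobulin-domain adhesion protein) had 0.30 ± 0.03 and 0.39 ± 0.04. After yki knockdown the cadherin genes Cad99C and Cad87A fell by 0.56 and 0.30 on the log2 scale (adjusted p = 2.82e-05 and 9.25e-07), and Vinc by 0.22 (adjusted p = 4.47e-05).

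Markers of other cells were measured because glia also build septate junctions. Among all tested genes 25.2% rose and 27.2% fell with Bon, and 11.3% rose and 16.3% fell with yki knockdown. Of 9 glial markers 8 were tested, and gcm did not pass the low-count filter. With Bon 0 rose and 5 fell, and their summed level was 1047 to 1099 CPM in Bon eyes, against 1320 to 1336 CPM in mCherry eyes. The pan-glial factor gene repo had 0.08 ± 0.05 (adjusted p = 0.165) and moody, of the barrier-forming glia, -0.03 ± 0.03 (adjusted p = 0.464). A further glial marker, wrapper, had -1.3 ± 0.03. With yki knockdown 4 glial markers rose and 2 fell, with sums of 1102 to 1159 CPM in Bon+yki-RNAi and 1047 to 1099 CPM in Bon eyes. Of 8 tested cone and pigment cell markers, 0 rose and 7 fell with Bon, with sums of 1146 to 1171 CPM in Bon eyes, against 2197 to 2250 CPM in mCherry eyes. The lens protein gene Crys averaged 0.0998, 0.0674 and 9.48 CPM in Bon+yki-RNAi, Bon and mCherry eyes. With yki knockdown 5 rose and 1 fell, with sums of 1420 to 1464 CPM in Bon+yki-RNAi and 1146 to 1171 CPM in Bon eyes. The part of these markers in the members' values was not tested, and in whole eyes fewer cells of a type and less RNA per cell cannot be told apart.

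The remaining marker lists were those of photoreceptors, hemocytes, muscle, trachea, fat body and brain neurons. Their counts stand beside 25.2% risen and 27.2% fallen with Bon among all tested genes, and 11.3% and 16.3% with yki knockdown. Of 6 tested photoreceptor markers 3 rose and 2 fell with Bon, and 2 rose and 2 fell with yki knockdown. Their summed level was 1752 to 1772 CPM in Bon+yki-RNAi, 1881 to 1900 CPM in Bon and 1941 to 1979 CPM in mCherry eyes. The photoreceptor membrane protein gene chp (chaoptin) averaged 117 ± 6.07 CPM in Bon+yki-RNAi, 293 ± 16.6 CPM in Bon and 429 ± 13.9 CPM in mCherry eyes, with -1.33 ± 0.05 for Bon+yki-RNAi over Bon (adjusted p = 7.66e-10) and -0.55 ± 0.04 for Bon over mCherry (adjusted p = 3.72e-07). The phototransduction channel gene trp averaged 19.3 ± 1.85, 31.9 ± 3.38 and 49.4 ± 1.23 CPM in these groups, with -0.72 ± 0.08 (adjusted p = 5.86e-05) and -0.63 ± 0.07 (adjusted p = 2.57e-05). The neuronal gene elav had 0.17 ± 0.03 for Bon+yki-RNAi over Bon and 0.08 ± 0.03 for Bon over mCherry, both past the test, and gl had -0.08 ± 0.03 (adjusted p = 0.0948) and 0.11 ± 0.03 (adjusted p = 0.0158). The opsin gene ninaE did not pass the low-count filter. Of 8 tested hemocyte markers 4 fell with Bon, with sums of 893 to 951 CPM in Bon and 1157 to 1212 CPM in mCherry eyes. Most of these sums came from Col4a1, vkg, Pxn and SPARC (594, 291, 162 and 129 CPM in mCherry eyes). Of the defining markers Hml and NimC1 stood at 1.43 and 1.18 CPM in mCherry eyes. The muscle gene Mhc stood at 1.45 CPM in mCherry eyes, and 1 of 6 muscle markers fell with Bon, with sums of 497 to 568 CPM in Bon and 951 to 1083 CPM in mCherry eyes, most of it from sls. Of 4 tracheal markers 1 rose and 2 fell with Bon, and of 5 tested fat body markers 0 changed. Of 3 genes listed as brain neuron markers, toy and bsh rose with Bon. Whether the RNA of toy and bsh came from brain tissue or from cells of the retina itself was not tested. With yki knockdown 1 hemocyte marker rose and 3 fell. Those that fell, Hml, eater and srp, had low levels, at 1.21, 0.318 and 3.31 CPM in Bon eyes. The hemocyte sums were 956 to 1024 CPM in Bon+yki-RNAi and 893 to 951 CPM in Bon eyes. In the same comparison 1 muscle marker rose, 1 tracheal marker rose, 0 fat body markers changed and toy and bsh rose.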

How the data were processed

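Per the file headers, the authors deposited for each library 1 table of counts per gene, with exon positions and summed exon length. The authors deposited estimated counts per gene, of which 39.7 to 42.8% in a library have decimals, and these were rounded to whole numbers for testing. The submitters' processing notes name cutadapt 2.9, Bowtie2 2.3.5.1, STAR 2.7.0e, featureCounts of Subread 1.6.2, DESeq2 1.30.1 and the build BDGP6. The sources used here give neither their options nor whether counting used strand. The authors' 2 deposited comparison tables hold, for each gene, p-values, log2 fold changes, fold ratios and a signal for each library made by size-factor scaling of its counts, and only calls and log2 values named as the authors' are quoted.

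Genes were filtered with filterByExpr (minimum count 10) and TMM-scaled. All 9 libraries were fitted with group as the only term by the robust quasi-likelihood method of edgeR 4.0.16 in R 4.3.3, with two-sided p-values adjusted by the Benjamini-Hochberg method over 11068 genes. The SE was taken as the absolute log2 value over the root of the F statistic. CPM are scaled to TMM library sizes. The labels do not say that replicates came from separate crosses, so p-values measure the spread between these libraries, which may in part be technical. Alternatives were RLE and upper-quartile factors, no filter, DESeq2 1.42.0, only the 2 groups compared, a replicate block, a length correction, and each library left out in turn.

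The members and gene lists were chosen with earlier results of these data known, and no test was run on the lists. Values per library are given for members past the threshold that changed by 0.5 or more on the log2 scale in any comparison or with opposite called changes, and for kune, Cont and p120ctn, chosen after their values were seen. Of other pathway lists, at most 4 genes per comparison with the smallest p are named, with bark and nrv1 added after their values were seen. Of 50 listed pathway genes 49 were matched by name or current symbol, and hoka did not pass the filter. The replicate numbers were not taken to pair the samples, since nothing in the labels ties them and not every same-numbered pair had a correlation of deviations over 0.1. Positions were read from the count tables. No sequences were used here.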

Additional observations from a re-analysis of the deposited data

How the results depend on the processing

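Across 93 member values (31 members in 3 comparisons) and 16 alternatives, 1356 of 1488 kept their direction and side of the threshold, 71 kept their direction but lost the call, 18 kept it and gained a call, and 43 changed sign. Of these sign changes 3 concerned called values, which also lost their call, all for Bon+yki-RNAi against mCherry: Nrg (0.02) and M6 (0.03) with upper-quartile factors and baz (-0.03) with the length trend removed. The cause was not tested. Upper-quartile factors, which moved the median of all genes to 0.066, 0.015 and 0.091 in Bon against mCherry, Bon+yki-RNAi against Bon and Bon+yki-RNAi against mCherry, gave 8 falls with Bon in place of 13. The members' medians became 0.01 with Bon and -0.09 for Bon+yki-RNAi against mCherry, in place of -0.06 and -0.18. With these factors the sign also changed for uncalled values near 0: with Bon, cora (0.02), pck (0.01), Nrg (0.01), Lac (0.02), Mcr (0.004), M6 (0.03), crim (0.05), par-6 (0.04) and arm (0.05), with yki knockdown in Bon eyes Nrg (0.01), Gli (0.01), M6 (0.004) and arm (0.01), and against mCherry Mcr (0.04) and arm (0.05). With the length trend removed, 1 member in place of 2 rose after yki knockdown, and 4 in place of 7 rose against mCherry. Sign changes there were crim with Bon (0.01), Atpalpha (-0.03), Mcr (-0.02), baz (-0.05) and aPKC (-0.02) with yki knockdown, and dlg1 against mCherry, which became a called fall (-0.10, adjusted p = 0.00635, in place of 0.0004 and 0.99). Without the low-count filter Atpalpha (-0.002), Mcr (-0.0004) and baz (-0.003) with yki knockdown and dlg1 (-0.002) against mCherry changed sign.

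With 1 library left out, 6 to 8 members rose and 10 to 14 fell with Bon, 1 to 2 rose and 12 to 14 fell with yki knockdown, and 6 to 7 rose and 18 to 20 fell against mCherry. The count of 1 rise came without Bon replicate 2 and without Bon+yki-RNAi replicate 1 or 3, where dlg1 lost its call. With Bon, the call of Cont ended without Bon replicate 3 or mCherry replicate 1 (adjusted p = 0.0884 and 0.062), and that of kune without Bon replicate 2 or 3 or mCherry replicate 2 (adjusted p = 0.0562, 0.103 and 0.0864). The calls of Patj, baz and alpha-Cat with Bon ended without each of several libraries. Values that crossed 0 ranged from -0.03 to 0.005 for crim and -0.03 to 0.0002 for arm with Bon, from -0.01 to 0.03 for Atpalpha, -0.03 to 0.03 for Mcr, -0.02 to 0.03 for baz and -0.002 to 0.03 for aPKC with yki knockdown, and from -0.01 to 0.03 for dlg1 against mCherry. For Bon against mCherry, same-numbered replicates had correlations of deviations of 0.078 to 0.183 and others of -0.127 to 0.057, so that each library correlated best with its own number, a hint from the data and not from the design. In the other comparisons this did not hold for every library. With the replicate block 8 members rose and 13 fell with Bon, 2 rose and 14 fell with yki knockdown (sdt gained a call) and 7 rose and 19 fell against mCherry (M6 lost its call). The lowest group mean of a member was 58.3 CPM, and no limit set by depth was compared with the other choices.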
